A study of Solanum lycopersicum with 12 samples.

Results

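BMY3, AGPL3, PPCK2 and chMDH are 4 tomato genes of starch and malate metabolism, and they were chosen because their transcripts were lower in roots given cadmium (Cd) than in control roots. They were found by gene symbol in the array's probe-to-gene table. BMY3 has 3 probe sets and the others 1 each, so the members are 6 of the 10038 probe sets tested and 4 of the 801 genes named there. The study hybridised total RNA of tomato (Solanum lycopersicum) to Affymetrix tomato arrays, 12 arrays in all. By title there are 4 groups of 3 arrays: Cd-treated root, control root (titled ck), Cd-treated leaf and control leaf. The 3 arrays titled as Cd-treated leaf carry a source label that says those leaves had no Cd treatment; they are grouped by title, and this contradiction applies to every leaf comparison given here. The labels state no cultivar, age, dose or duration, and nothing says that the 3 arrays of a group were taken from different plants. Each p-value therefore reflects no more than the scatter among these arrays, and that scatter may be technical.

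Starch is made in plastids from ADP-glucose and is broken down again to maltose and glucose. ADP-glucose pyrophosphorylase, built of large and small subunits, makes the ADP-glucose, and AGPL3 is one of its large subunits. BMY3 is a beta-amylase, a member of the enzyme family that releases maltose from starch chains. Malate is made from oxaloacetate by malate dehydrogenases that occur in several cell compartments, and chMDH is the chloroplast one. Phosphoenolpyruvate carboxylase supplies the oxaloacetate in the cytosol, and its kinases, such as PPCK2, phosphorylate it and make it less sensitive to inhibition by malate. In roots, malate takes part in charge balance, respiration and the release of organic acids.

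Values are log2 expression per probe set as deposited, and differences are Cd minus control unless stated. An array's background was set at its brightest negative control among 23, giving 3.13 to 3.57 on root arrays and 2.69 to 3.01 on leaf arrays. Array medians lay between 7.46 and 7.50 in root and between 6.85 and 6.89 in leaf. A difference between root and leaf as deposited holds this offset. The members' organ differences are therefore also given with each array's median taken off. Arrays of a group correlated at 0.979 to 0.994 in root and at 0.960 to 0.986 in leaf. Leaf Cd array 3 correlated no better with its own group (mean 0.963) than with the leaf controls (mean 0.964). Root control array 3 was the control array farthest from the Cd roots (mean 0.960, against 0.977 for each of the other control arrays). The members' differences are given with and without these arrays. The number of arrays limits the precision of every value.

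The organ labels were checked with marker genes. As deposited, a list of 9 green tissue markers, light-harvesting, photosystem and plastocyanin genes, averaged 11.58 to 12.20 on the leaf arrays. It averaged 10.55 to 11.93 on control roots and 9.48 to 10.33 on Cd roots, so root control array 3 lay within the leaf range. PSBR was higher in control root than in control leaf (0.12, limma adjusted p = 0.324). PSBO overlapped (-0.47, limma adjusted p = 0.0925). With medians taken off both were lower in control root (-0.47 and -1.06, limma adjusted p = 0.00393 and 0.00367). The root arrays also carried these transcripts, all 9 of them above background on every root array. Of 5 genes of root nutrient uptake and root hairs, 4 were above background on all control root arrays and 3 at background on all control leaf arrays. FRO1 of that list went the other way and was lower in control root than in control leaf as deposited (-2.45, limma adjusted p = 0.0147). With medians taken off it was lower as well (-3.04, limma adjusted p = 0.00814). AMT1-2 of that list was above background on all control leaf arrays too. It was higher in control root as deposited (0.90, limma adjusted p = 0.00155) and did not pass with medians taken off (0.31, limma adjusted p = 0.214).

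AGPL3 (NCBI Gene 544039) had 5.53, 6.09 and 6.69 on the Cd root arrays and 6.82, 6.58 and 8.10 on the control root arrays. The groups overlapped, since the highest Cd array lay above the lowest control array, and control array 3 stood well above the other two. The means were 6.10 ± 0.58 with Cd and 7.16 ± 0.82 without (SD, n = 3 each), a difference of -1.06. Without root control array 3 the difference was -0.59. In leaf, AGPL3 had 8.29, 9.05 and 8.51 on the arrays titled Cd and 9.26, 9.48 and 8.998 on the controls.

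BMY3 (NCBI Gene 543804) was read by 3 probe sets of the same gene, which are repeated readings and not replicates. On the brightest it had 8.69, 8.96 and 8.80 on the Cd root arrays and 9.57, 9.37 and 9.95 on the control root arrays. All 3 Cd arrays lay below all 3 controls, and this held on the other 2 probe sets as well. The differences in root were -0.81, -0.83 and -0.80 on the 3 probe sets (-0.65, -0.72 and -0.72 without root control array 3), so that the readings of this gene differed by less than the spread between arrays. In leaf the brightest probe set had 9.09, 8.75 and 8.92 on the arrays titled Cd and 9.27, 9.08 and 9.57 on the controls. Here the ranges overlapped on each of the 3 probe sets.

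PPCK2 (NCBI Gene 543865) was the member nearest to background. It had 3.20, 3.18 and 3.005 on the Cd root arrays, each below that array's background, and 4.55, 3.78 and 5.24 on the control root arrays, all above it. Because the Cd roots give only an upper limit, the mean of the 3 control arrays was set against the background of the Cd roots. With that mean taken as it stands, the transcript was at least 2.28-fold lower with Cd. The limit covers the Cd side only, and the control arrays scattered, exceeding their own background by 0.42 to 1.84. The fitted difference, which is no bound, was -1.40, and -1.04 without root control array 3. In leaf it had 2.69, 3.10 and 3.08 on the arrays titled Cd and 3.61, 4.03 and 4.46 on the controls, with no overlap. The arrays titled leaf Cd exceeded their background by only 0.00 to 0.23, whereas the leaf controls exceeded theirs by 0.79 to 1.52.

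chMDH (NCBI Gene 778287) had 6.35, 6.09 and 7.19 on the Cd root arrays and 7.94, 7.63 and 8.51 on the control root arrays. The groups did not overlap, and array 3 was the highest of each group. The means were 6.54 ± 0.57 with Cd and 8.03 ± 0.45 without (SD, n = 3 each), which is 2.80-fold lower. The difference was -1.49, and -1.25 without root control array 3. In leaf it had 7.64, 8.23 and 8.21 on the arrays titled Cd and 8.42, 8.14 and 8.16 on the controls. Leaf Cd array 1 was the only one below the controls.

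**Figure D1:**
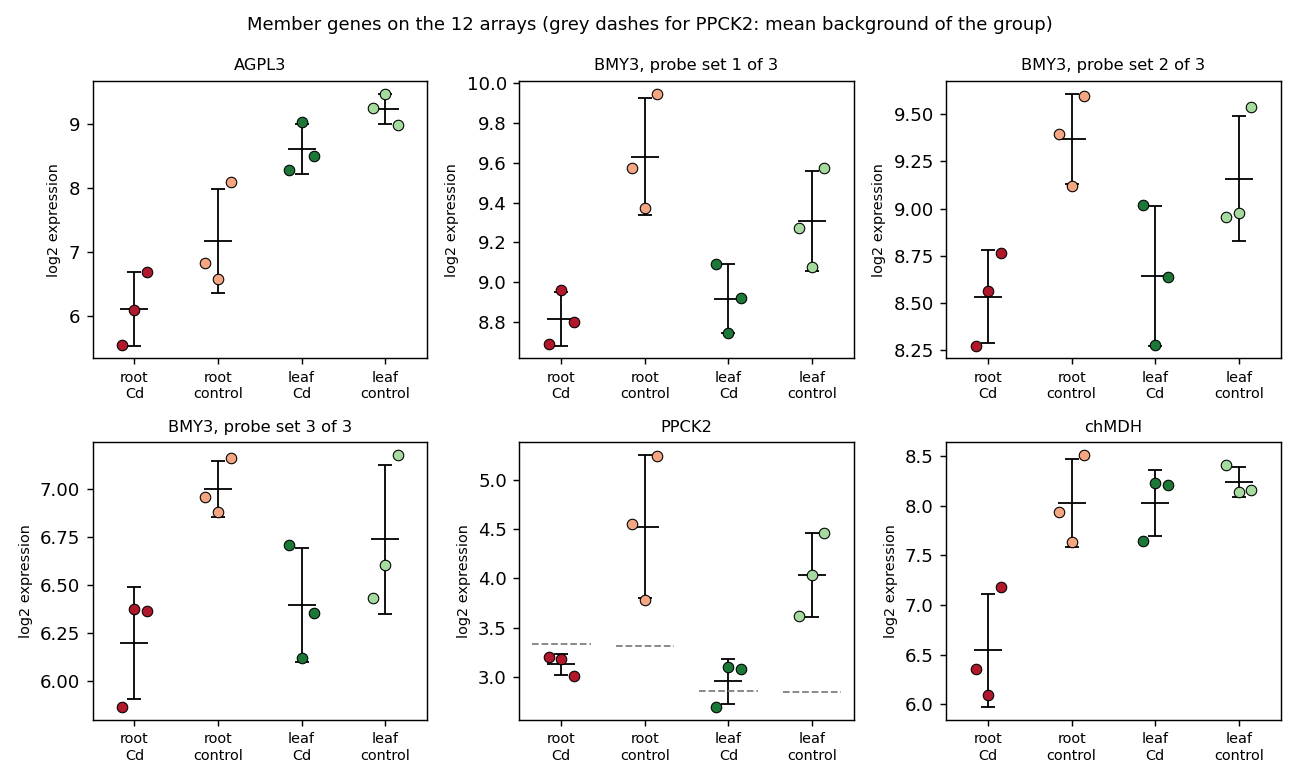
Log2 expression (vertical axes, each panel on its own scale) of the 6 member probe sets in Cd root, control root, Cd leaf (by title) and control leaf, with 1 point per array and bars for the mean ± SD of 3 arrays. For PPCK2 grey dashes mark the mean background of each group; its Cd root arrays, at 3.005 to 3.20, all lie below their own background, while chMDH is at 6.09 to 7.19 in Cd root and at 7.63 or above in every other group.

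The values in root chose these genes, so they are a description and carry no test here. Among the 801 named genes ordered by their difference in root from the lowest up, chMDH stood at place 16, PPCK2 at 18, AGPL3 at 29 and BMY3 at 46. An adjusted p under 0.05 in the lower direction was reached by 3 of the 6 probe sets, those of PPCK2 and chMDH and 1 of BMY3, and by 1.96% of all probe sets tested. Nothing is read from this count. On 5 of the 6 probe sets all Cd arrays lay below all control arrays, which was so for 13.9% of all probe sets. In whole root tissue, fewer cells of a type and less RNA per cell cannot be told apart.

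The leaf comparison was no part of the rule that chose the genes, and it was tested. Earlier results of these data were known when the genes were chosen, and the root arrays share in the variance of this test. All 6 probe sets had lower means on the arrays titled Cd, and none passed the threshold, against 3.78% of all probe sets. At an unadjusted p under 0.05, limma passed 2 of the 6, against 19.2% of all probe sets. The median difference over the 4 genes was -0.51, beside 0.02 over all probe sets, of which 46.8% lay below 0. PPCK2 had the largest difference of the 4, -1.08 (95% interval -1.79 to -0.37, 2.12-fold lower, limma adjusted p = 0.0955, or 0.0942 with the leaf arrays blocked by replicate number). Its 3 arrays titled Cd all lay below the 3 controls, which 7.86% of all probe sets did. Its adjusted p was 0.0452 without root control array 2 and 0.0431 without root control array 3, arrays that enter the leaf comparison only through the shared variance. Over the other alternatives it lay between 0.0779 and 0.278.

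AGPL3 differed by -0.63 in leaf (95% interval -1.50 to 0.24, limma adjusted p = 0.438). BMY3 differed by -0.39, -0.51 and -0.34 on its 3 probe sets (limma adjusted p = 0.270, 0.255 and 0.456). For chMDH the difference in leaf was -0.21 (95% interval -0.87 to 0.45, limma adjusted p = 0.772), while in root the same gene had differed by -1.49. With arrays blocked by replicate number, the limma adjusted p in leaf was 0.165 for AGPL3 and 0.603 for chMDH. For BMY3 it was then 0.278, 0.239 and 0.455. The root difference exceeded the leaf difference by 1.28 on the log2 scale for chMDH, by 0.43 for AGPL3 and by 0.42 for BMY3 on its brightest probe set. For PPCK2 no such gap is given, because its Cd roots were below background. These gaps contain the values that chose the genes, so they were not tested. Without leaf Cd array 3, the leaf differences were -0.58 for AGPL3, -0.39 for BMY3 on its brightest probe set, -1.14 for PPCK2 and -0.30 for chMDH. Without leaf Cd array 1 that of chMDH was -0.02.

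The organs were compared without Cd, a comparison in which the control root arrays are among those that chose the genes. AGPL3 was the member that separated the organs most: it was 4.23-fold lower in control root than in control leaf as deposited (-2.08, limma adjusted p = 0.000875), and 6.37-fold lower with array medians taken off (-2.67, limma adjusted p = 0.000352). All 3 control root arrays lay below all 3 control leaf arrays, as on 11% of all probe sets. Without root control array 3 the values as deposited were -2.55 for AGPL3, -0.45 for chMDH, 0.17 for BMY3 on its brightest probe set and 0.13 for PPCK2. Of all probe sets, 9.95% were lower in root by this test as deposited and 21.3% with medians taken off. chMDH differed by -0.21 as deposited (limma adjusted p = 0.541) and by -0.80 with medians taken off (limma adjusted p = 0.0496; its adjusted p over the alternatives reached 0.978). BMY3 and PPCK2 did not pass on either scale, and their sign depended on it. PPCK2 passed as deposited only without root control array 2 (0.86, limma adjusted p = 0.0204). BMY3 on its brightest probe set differed by 0.32 as deposited and by -0.27 with medians taken off, and PPCK2 by 0.49 and -0.10. Over all probe sets the median difference between the control organs was 0.63 as deposited.

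With array medians taken off, the Cd roots held the lowest mean of the 4 groups for BMY3, AGPL3 and chMDH, as the choice of genes favours. Control leaf held the highest mean for these genes on this scale. For AGPL3 the order from low to high was Cd root (-1.38 ± 0.56), control root (-0.31 ± 0.81), Cd leaf (1.75 ± 0.40) and control leaf (2.36 ± 0.25; SD, n = 3 each). Ranges overlapped between the root groups and between the leaf groups, not between the organs. For chMDH only the Cd roots stood apart, at -0.94 ± 0.56, and each of the other neighbours in the order overlapped (0.55 ± 0.45 in control root, 1.17 ± 0.35 in Cd leaf and 1.35 ± 0.15 in control leaf). For PPCK2 the 2 groups with Cd have no order, since the Cd roots were below background and their means change places between the scales (3.13 in Cd root and 2.96 in Cd leaf as deposited). Both lay apart from both controls, and the controls overlapped. For BMY3 the Cd roots alone lay apart with medians taken off, on each of its 3 probe sets. As deposited they overlapped with Cd leaf on each of them (8.69 to 8.96 against 8.75 to 9.09 on the brightest).

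Relatives of the members in the same families gave their own patterns. For the pyrophosphorylase, AgpL1, another large subunit gene, had 5.55, 6.96 and 5.42 in Cd roots and 5.98, 5.38 and 7.02 in control roots, with full overlap (difference -0.15, 95% interval -1.15 to 0.86). In leaf AgpL1 had 6.94, 6.68 and 6.57 on the arrays titled Cd and 7.38, 7.84 and 8.22 on the controls, without overlap (-1.08, limma adjusted p = 0.226). AgpL1 was also lower in control root than in control leaf, as deposited (-1.69, limma adjusted p = 0.00700) and with medians taken off (-2.28, limma adjusted p = 0.00233). The gene listed as AGP-S2, with the synonym agpL2, differed by -0.19 in root and by 0.31 in leaf. It was higher in control root than in control leaf as deposited (0.81, limma adjusted p = 0.000533) and did not pass with medians taken off (0.22, limma adjusted p = 0.226).

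PPCK1, the other carboxylase kinase on the array, had 6.12, 6.41 and 5.76 in Cd roots and 6.60, 6.87 and 5.90 in control roots. These groups overlapped (-0.36, 95% interval -1.06 to 0.34), and so did the leaf groups (0.18, 95% interval -0.52 to 0.87).

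Among the malate dehydrogenases, gMDH, the glyoxysomal one, had 8.40, 8.72 and 9.17 in Cd roots and 9.52, 9.18 and 10.53 in control roots. Every Cd array lay below every control array, and the difference of -0.98 did not pass (limma adjusted p = 0.128). The gene listed as mdh differed by -0.52 (limma adjusted p = 0.191), also without overlap. The mitochondrial mMDH1, which was added after its values were seen, differed by 0.15, and cMDH, the cytosolic one, by 0.01. In leaf, chMDH (-0.21), gMDH (-0.17), mdh (-0.06), mMDH1 (-0.02) and cMDH (-0.42) did not pass. With medians taken off, gMDH and mdh were lower in control root than in control leaf (-1.42 and -1.21, limma adjusted p = 0.00419 and 0.000503), and as deposited they also passed (-0.83 and -0.62, limma adjusted p = 0.0356 and 0.0149). cMDH passed only with medians taken off (-0.65, limma adjusted p = 0.0131; as deposited -0.06, limma adjusted p = 0.766).

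**Figure D2:**
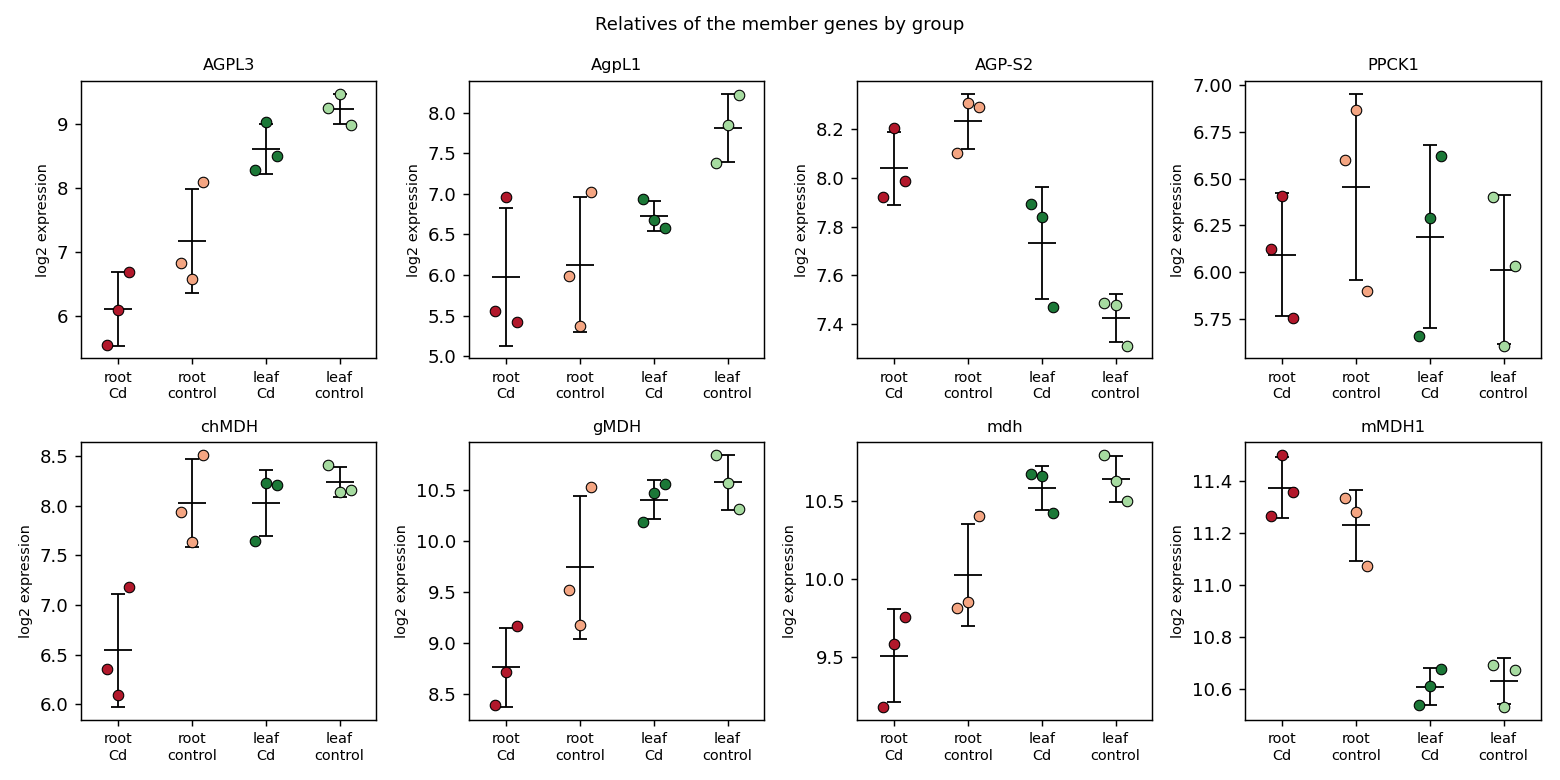
Log2 expression (vertical axes, each panel on its own scale) of AGPL3, chMDH and 6 relatives in Cd root, control root, Cd leaf (by title) and control leaf, with 1 point per array and bars for the mean ± SD of 3 arrays. AgpL1, AGP-S2, PPCK1 and mMDH1 overlap between Cd and control root, whereas chMDH, gMDH and mdh do not.

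Other genes of starch, malate and sugar metabolism were taken from 6 lists of symbols, with the 4 members left out, which gave 31 measured genes. In root 1 of the 31 rose and none fell by limma, while 1.07% of all probe sets rose and 1.96% fell. At an unadjusted p under 0.05, 7 of the 31 passed, against 17.4% of all probe sets. Their median difference was 0.07, beside 0.02 over all probe sets. The gene that rose was LOC544276, listed under the synonym ICL, a symbol used for isocitrate lyase of the glyoxylate cycle. It had 10.21, 9.60 and 9.54 in Cd roots and 6.23, 4.37 and 4.95 in control roots (difference 4.60, limma adjusted p = 0.000618). Its responses in root and leaf differed by 3.97 (limma adjusted p = 0.0159), and those of 0.757% of all probe sets did. In leaf none of the 31 passed, against 3.78% of all probe sets, and 10 did at an unadjusted p under 0.05, against 19.2%.

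No gene of sugar transport or sugar cleavage passed in root. Of 5 sucrose and hexose transporters, all 5 had higher means in Cd roots (median difference 0.42). At an unadjusted p under 0.05, 3 of them passed in root, against 17.4% of all probe sets. On the arrays titled leaf Cd, 4 of the 5 had higher means and 1 a lower one (median difference 0.68). There 2 passed at an unadjusted p under 0.05, against 19.2% of all probe sets. The hexose transporter HT2 was at 7.07 ± 0.79 in Cd roots and 5.32 ± 0.32 in control roots (SD, n = 3 each; limma adjusted p = 0.171), and HT1 differed by 1.099 (limma adjusted p = 0.0844). Among 18 genes of sucrose and hexose metabolism, FRK4 and lin5 were at background on every array. Of the 18, 12 had higher means in Cd roots, FRK4 among them (median difference of the list 0.08, beside 0.02 over all probe sets). The cell wall invertase Wiv-1, which splits sucrose outside the cell, was farthest from 0, with 10.01 ± 0.13 in Cd roots and 8.44 ± 0.40 in control roots (limma adjusted p = 0.0751). ME1, an NADP-dependent malic enzyme that turns malate into pyruvate, differed by -0.34 in root and -0.59 in leaf and did not pass in either, although its groups did not overlap in root or in leaf. ME2, added after its values were seen, differed by 0.26 and 0.14. No gene of the starch breakdown list other than BMY3 was named on the array.

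**Figure D3:**
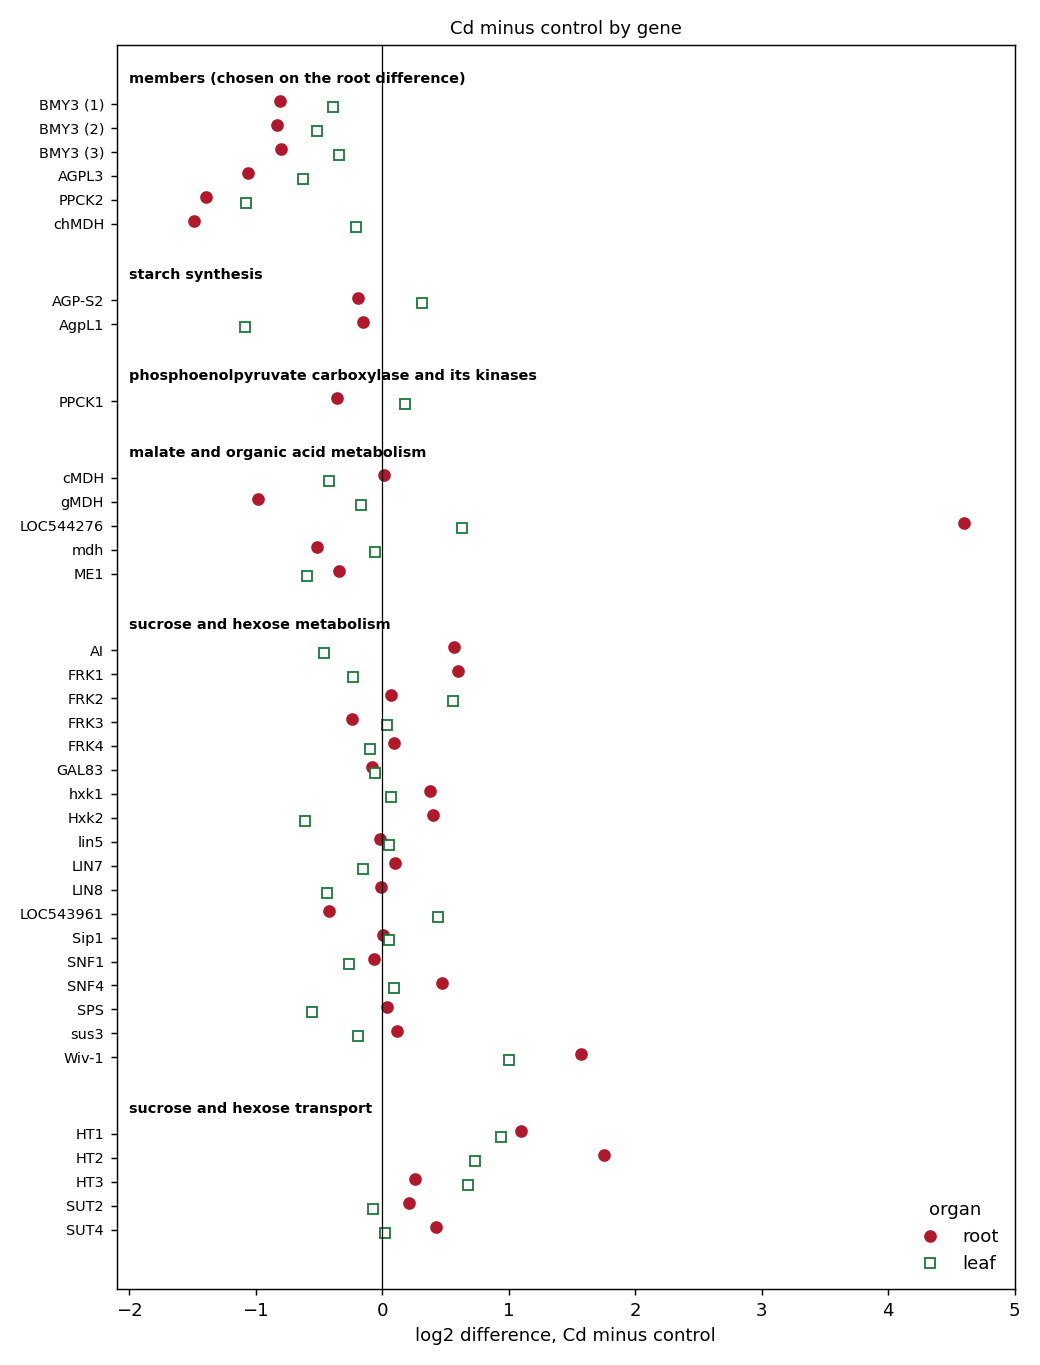
Log2 difference, Cd minus control (horizontal axis), in root (filled circles) and leaf (open squares) for the 6 member probe sets and the 31 other pathway genes, by list. The members lie left of 0 in both organs, from -1.49 to -0.80 in root, where they were chosen for it, and from -1.08 to -0.21 in leaf; LOC544276 lies at 4.60 in root.

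Green tissue markers had lower levels in Cd roots, like the members. Averaged over the 9 markers, Cd root arrays 1 to 3 had 9.48, 10.06 and 10.33, and control root arrays 1 to 3 had 11.04, 10.55 and 11.93. All Cd arrays lay below all controls, and all 9 markers had lower means in Cd roots, with a median difference of -0.95. Of these, 1 fell by limma (CAB4, a chlorophyll-binding protein gene, -2.01, limma adjusted p = 0.0401), against 1.96% of all probe sets. At an unadjusted p under 0.05, 9 passed, against 17.4% of all probe sets. All 6 member probe sets, of which 3 read BMY3, ranked the control root arrays as the markers did, with array 2 lowest and array 3 highest. The share of all probe sets with this order was not counted, and these arrays are among those that chose the genes. Nothing is read from this order. Within the Cd roots, AGPL3 and the 3 probe sets of BMY3 were lowest on array 1, like the markers. chMDH was lowest on array 2, and PPCK2 varied only below background. In leaf the markers averaged 11.58, 11.90 and 11.93 on the arrays titled Cd and 12.17, 12.20 and 12.05 on the controls, again without overlap. There 8 of the 9 had lower means (median difference -0.19). None passed, against 3.78% of all probe sets, and none did at an unadjusted p under 0.05, against 19.2%. Leaf Cd array 1, the lowest in markers, was also the lowest leaf array for AGPL3 and chMDH. For BMY3 it was the highest of the 3 arrays titled leaf Cd, on each of the 3 probe sets. PPCK2 lay at background there. The 5 root markers averaged 7.49 to 7.88 on the Cd root arrays and 6.51 to 7.56 on the control root arrays, with overlap. By limma 2 of these root markers rose in Cd roots (ext1 and FER), against 1.07% of all probe sets. Lower means there were found for 2: AMT1-2 (-0.67, limma adjusted p = 0.0838, no overlap) and FRO1 (-0.39, limma adjusted p = 0.884). The part of green tissue or of root cell types in these differences was not tested.

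**Figure D4:**
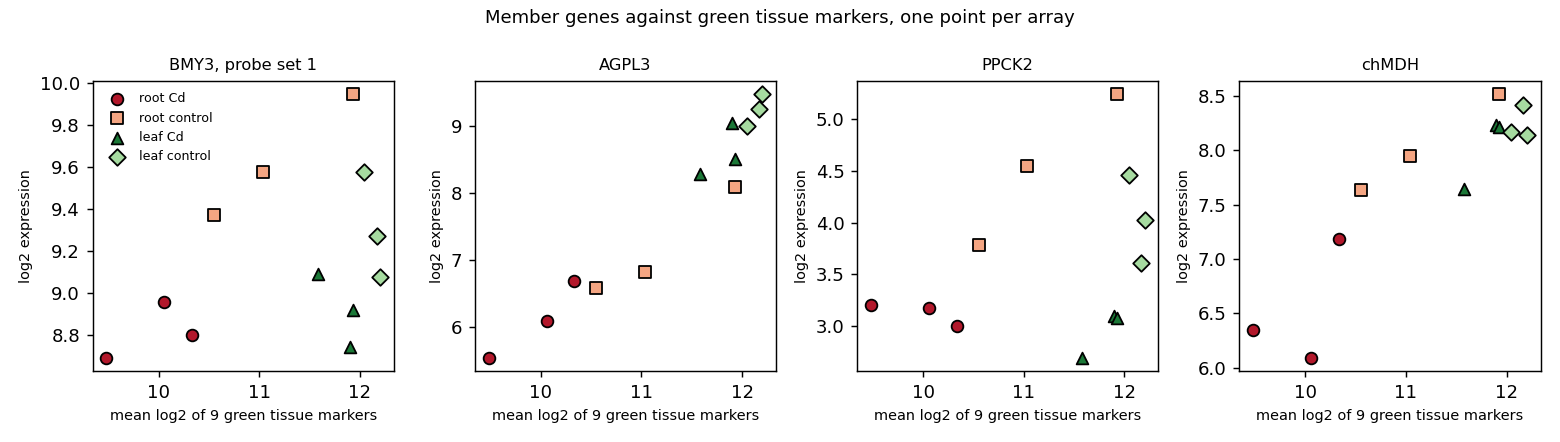
Log2 expression as deposited of each member (vertical axes, BMY3 on its brightest probe set) against the mean log2 level of 9 green tissue markers (horizontal axes), 1 point per array. Along the marker axis from 9.48 to 12.20, AGPL3 runs from 5.53 to 9.48. On the arrays titled leaf Cd, with markers at 11.58 to 11.93, PPCK2 is at 2.69 to 3.10, at most 0.23 above background.

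The named genes most like each member were taken by the Pearson correlation of median-centred values over the 12 arrays, among 800 other named genes. Since these arrays hold both organs, a shared organ difference is part of each value. The root arrays that chose the members are among them, so part of any likeness between members was built in. AGPL3 was closest to LOC543978, a photosystem I subunit gene with the synonym psaD (r = 0.99), PsbQ of photosystem II (r = 0.99) and GSA-AT, an enzyme of chlorophyll synthesis (r = 0.99). chMDH was closest to LOC543930, CITRX and LOC544217 (r = 0.97 each). For BMY3 they were LOC544309 (r = 0.93), LCY1, a lycopene cyclase (r = 0.90), and CO1, a CONSTANS-like factor (r = 0.88). For PPCK2 they were CIP1 (r = 0.85), CO1 (r = 0.84) and BMY3 itself (r = 0.83). With values as deposited, the same pairs in the same order had r = 0.97, 0.98 and 0.96 for AGPL3. They had 0.95, 0.73 and 0.92 for chMDH, 0.91, 0.66 and 0.74 for BMY3, and 0.84, 0.76 and 0.89 for PPCK2. PPCK2 was below background on the Cd roots and at most 0.23 above it on the arrays titled leaf Cd. Its correlations therefore partly describe the background. Among the members, AGPL3 and chMDH were the most alike (r = 0.91) and AGPL3 and PPCK2 the least (r = 0.47).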

How the data were processed

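The authors deposited log2 values for each probe set, and these were used unchanged. MAS5 and RMA appear in the submitters' processing notes, but which step each served is not given in the sources used here. Of 10209 probe sets on the array, 171 control probe sets were left out. Symbols came from the array's 2007 annotation, which gives 1 symbol to 909 of the 10038 probe sets tested (9.06%), and the 6 member probe sets were matched to the current gene table. The log2 values of all 12 arrays entered a linear model of the 4 groups in limma (version 3.58.1, under R 4.3.3) (prior degrees of freedom 2.84, residual 8). P-values are two-sided and adjusted over all 10038 probe sets by the Benjamini-Hochberg method at 0.05. On simulated data for these 3 contrasts, 92% to 96% of probe sets changed by 2 on the log2 scale were recovered, and 59% to 73% of those changed by 1. Where a pathway gene had several probe sets, the one with the highest mean was used. The members, lists and rules for naming genes were chosen with earlier results of these data known. The rule names the members, pathway genes past the threshold or farthest from 0 in their list, and 3 genes most like each member; any further gene was picked with its values in view. Lists were matched by symbol and synonym, and 3 doubtful matches (HT1 as a starch gene, TPI and tst) were taken out. Array numbers were checked as pairs by correlating deviations from the group means: in leaf the correlations were 0.35, 0.42 and 0.12, in root 0.00, -0.26 and 0.06. Arrays of different number were not correlated in this way, so these values do not settle whether the numbers are pairs in either organ. Alternatives covered scaling, the arrays fitted, array weights, the variance trend, dim probe sets, the replicate block and each array left out. Python 3.11.15 with pandas 2.3.3 served for tables and matplotlib 3.10.9 for plots.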

Additional observations from a re-analysis of the deposited data

Results flagged for a closer look

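LOC544276 (synonym ICL) was picked out because its Cd responses differed between the organs by the test of that difference: the response in root exceeded that in leaf by 3.97 on the log2 scale (limma adjusted p = 0.0159, while 0.757% of all probe sets passed). Its values were 10.21, 9.60 and 9.54 in Cd roots and 6.23, 4.37 and 4.95 in control roots, and 10.37, 10.09 and 9.95 on the arrays titled leaf Cd and 9.15, 10.11 and 9.27 in control leaves. The members were left out of this test, since the root values chose them.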

How the results depend on the processing

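The members' differences in leaf kept their sign under all 20 alternatives, that of chMDH coming to -0.02 without leaf Cd array 1. Only PPCK2 crossed the threshold, without root control array 2 or 3; leaving out arrays moved it between -1.29 and -0.87. In the organ contrast AGPL3 passed under all 19 alternatives. chMDH passed only with arrays centred on their medians (-0.80). BMY3 turned negative with centring (-0.27, -0.38 and -0.33 on its 3 probe sets) and with quantile normalization over all arrays (-0.23, -0.35 and -0.33), as did PPCK2 (-0.10 and -0.18), which lay between 0.13 and 0.86 when arrays were left out. Probe sets called in leaf numbered 379, or 65 from the 6 leaf arrays alone; leaving out arrays gave 127 (without leaf control array 2) to 589 (without leaf Cd array 3), and 179 without leaf control array 3. In root there were 304 calls, 202 from the 6 root arrays alone (108 higher, 94 lower) and 3745 with array weights (1873 higher, 1872 lower). Leaving out arrays gave 85 to 409 in root: 85 without Cd array 1, 136 without Cd array 2, 118 without control array 1 and 123 without control array 3. In the organ contrast 7118 passed (6119 higher, 999 lower in root), 4343 with centring (2203 higher, 2140 lower) and 4251 with quantile normalization over all arrays, and 6166 to 7530 with arrays left out. The responses of the organs differed for 76 probe sets, 705 with array weights and 26 to 160 with arrays left out. Of the 31 pathway genes, 3 rose in root from the root arrays alone, and 11 rose and 5 fell with array weights; leaving out arrays gave 1 to 2 that rose in root and 0 to 2 in leaf. With the replicate block, 376 probe sets passed in leaf (165 higher, 211 lower, against 224 and 155 without it), 421 in root and 87 in the difference between organs, and no member's call changed. The labels do not say whether arrays are separate plants, signal near background limits PPCK2, and the causes of these changes were not tested.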
